A study of Homo sapiens with 12 samples.

Results

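A set of 9 genes of retinoid metabolism and retinoid signalling were followed through an estradiol experiment in ECC1, a human endometrial cancer cell line. They were chosen by symbol: the retinal reductase DHRS3, the retinoic acid hydroxylase CYP26A1, the binding proteins CRABP1 and CRABP2, and the receptors RARA, RARB, RARG, RXRA and RXRB. All 9 were among the 34595 entries of the expression table, and 7 of the 9 passed the filter on dim genes and were tested. Total RNA was measured on 12 Illumina whole-genome expression arrays, 3 in each of 4 groups. The first pair of groups was parental ECC1, untreated or given 10 nM estradiol for 24 h. The second pair was ECC1 with MTDH knocked out, again untreated or given the same dose for the same time. MTDH encodes metadherin, which is known as a membrane-bound protein often abundant in tumours. Per the treatment protocol, both lines were first kept for 24 h in RPMI1640 whose 5% serum had been charcoal-stripped, which removes most steroid hormones. The labels name no vehicle for the untreated arrays. The knockout was represented by 1 line, and the labels do not say how it was made. Since they also leave unsaid whether replicates came from separate cultures, a p-value here speaks only of the scatter among these samples, part or all of which may be technical.

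Retinoic acid, made from vitamin A (retinol) by way of retinal, is a ligand of the RAR receptors, which bind DNA as heterodimers with RXR receptors and change the transcription of their target genes. Its amount in a cell is set by enzymes: retinal is either oxidised to retinoic acid or reduced back to retinol, the step that DHRS3 is known for, and retinoic acid is inactivated by hydroxylases such as CYP26A1. Within cells the acid is carried by CRABP1 and CRABP2. In the endometrium, estrogen and retinoid signalling are both known to act on the growth and differentiation of the epithelium.

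The sequences before the gene starts of DHRS3 and RARA, the members that rose with estradiol, and those of the retinoid-type repeats found in members, are shown as context for the values that follow. They come from RefSeq on GRCh38.p14, where all 9 genes matched, with 19 windows that run from 250 bases before to 50 bases after a start site. DHRS3 lies on chromosome 1 from 12567910 to 12618210, on the minus strand. The 250 bases before its gene start, at chr1:12618211-12618460, held no match to any motif searched, and of its other windows the one at chr1:12596614-12596863 held 2 single half-sites:
DHRS3: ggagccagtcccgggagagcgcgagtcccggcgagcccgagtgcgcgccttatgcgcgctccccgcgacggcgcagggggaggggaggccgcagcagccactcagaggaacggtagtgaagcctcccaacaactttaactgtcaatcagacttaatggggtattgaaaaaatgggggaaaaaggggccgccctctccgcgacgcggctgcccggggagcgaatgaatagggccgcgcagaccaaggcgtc
RARA lies on chromosome 17 from 40309180 to 40357643, on the plus strand. The 250 bases before its gene start, at chr17:40308930-40309179, held 3 single half-sites (its other 2 windows held 0), which are in capitals and read GGTCA on the strand shown or TGACC where they lie on the opposite strand:
RARA: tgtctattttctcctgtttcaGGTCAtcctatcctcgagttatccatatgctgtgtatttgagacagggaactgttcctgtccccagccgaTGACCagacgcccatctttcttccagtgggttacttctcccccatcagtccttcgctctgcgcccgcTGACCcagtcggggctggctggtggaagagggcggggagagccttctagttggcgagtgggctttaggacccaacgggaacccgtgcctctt
Direct repeats of the retinoid half-site, GGTCA or GTTCA with any base before it and 5 bases between the repeats, were found in 1 window of RARB and 1 of CYP26A1. An element of this kind is well known from the RARB promoter. The RARB match is in capitals within chr3:25428190-25428246 on the plus strand, 53 to 37 bases before a start site inside the gene:
RARB: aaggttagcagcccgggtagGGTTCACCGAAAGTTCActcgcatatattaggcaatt
The CYP26A1 match lies on the opposite strand at chr10:93073803-93073819, 90 to 74 bases before a start site, and is given on the plus strand with all of its bases in capitals:
CYP26A1: TGAACTTTGGGTGAACT
That repeat was present in 61 of all 35116 windows (0.174%), and the single half-site GGTCA in 13125 (37.4%), with both strands searched. The single half-site is part of the estrogen response element, which is GGTCA followed after 3 bases by TGACC, and of those repeats that are built from GGTCA, so the counts can overlap, but the repeats shown for RARB and CYP26A1 are built from GTTCA and hold none. The estrogen response element was found in 20 of all windows (0.057%) and in 0 of the 19. Direct repeats with a spacer of 2 bases (0.159% of all windows) or of 1 base (0.245%) were found in 0 of the 19 as well. A match is a run of letters and not evidence of a bound site, and the lack of one says only that these letters are not in the window.

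The arrays were compared on the deposited log2 scale. Array medians lay between 6.78 and 6.86. Of 9 epithelial and endometrial carcinoma markers, 8 read above the median of all values, 6.82, on all 12 arrays. PGR read above it on estradiol arrays only, and read at most 6.73 on untreated arrays. In the parental line that held for every estradiol array. In the knockout line it held for estradiol replicate 1 alone (6.93), and the other estradiol arrays had a mean of 6.76. In untreated cells MTDH read 11.43, 11.18 and 10.78 on the parental arrays and 8.57, 8.53 and 8.59 on the knockout arrays. With estradiol 1 array of each line went against its label. Parental estradiol replicate 3 read 8.97, and 10.94 was the value of knockout estradiol replicate 1. The other parental estradiol arrays read 10.83 and 10.96, and the other knockout estradiol arrays 8.49 and 8.49. Across genes, each of the 2 arrays was also nearest to an estradiol array of the other line. The labels were kept, and values are from all 12 arrays unless said otherwise, with those of the 10 that remain without the 2 beside the results that rest on them.

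DHRS3 and RARA rose with estradiol in both lines, and RXRB fell in parental cells and on average over both lines. DHRS3 changed most among the 9 genes, while RARA and RXRB moved by small steps. The binding proteins CRABP1 and CRABP2, the receptor RARG and the receptor RXRA were not called for estradiol with all 12 arrays. With limma and Benjamini-Hochberg adjustment over all 19670 genes tested, 2 of the 7 tested genes rose and 1 fell in parental cells at an adjusted p under 0.05, where 1.12% of all tested genes rose and 5.87% fell. In knockout cells 2 rose and 0 fell, against 1.18% and 2.69% of all genes. At an unadjusted p under 0.05, 2 members lay higher and 2 lower there, beside 3226 of all 19670 genes in either direction. For the mean response of both lines, 2 rose and 1 fell, against 1.85% and 8.76%. With the 2 arrays left out, 2 rose and 2 fell in parental cells (all genes, 1.61% and 9.14%), 2 rose and 0 fell in knockout cells (2.54% and 4.26%), and 2 rose and 2 fell over both lines (2.56% and 11.8%). The median over the 7 genes was -0.02 in parental and 0.01 in knockout cells, beside -0.05 and -0.02 over all tested genes.

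DHRS3, the enzyme that returns retinal to retinol, read 8.18, 7.85 and 7.72 on the untreated parental arrays and 11.20, 11.10 and 10.41 on the parental estradiol arrays. On the knockout arrays it read 7.42, 7.18 and 7.40 without and 11.10, 10.32 and 10.24 with estradiol. In both lines the lowest estradiol array stood more than 2 log2 units above the highest untreated array, so the groups were far apart. DHRS3 rose by 2.99 ± 0.23 log2 units (SE, n = 3 per group, adjusted p = 6.01e-06) in parental cells and by 3.22 ± 0.23 (adjusted p = 3.28e-06) in knockout cells. Over both lines the rise was 3.11 ± 0.16 (adjusted p = 5.16e-08), or 8.60-fold. It kept its call under each of the 20 alternative settings, scaling and single omitted arrays included. The rise ranked 4 among all tested genes in parental cells and 1 in knockout cells with all 12 arrays, and 2 in each line without the 2 arrays. In bulk RNA, more cells with the transcript and more transcript per cell cannot be told apart.

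The 2 arrays that go against their labels moved the size of the DHRS3 response in opposite ways in the 2 lines. The array labelled parental estradiol replicate 3, at 10.41, was the lowest of its group and lay near the knockout estradiol arrays at 10.32 and 10.24. The array labelled knockout estradiol replicate 1, at 11.10, was the highest of its group and lay beside the parental estradiol arrays at 11.20 and 11.10. In the fit of 10 arrays the rise was 3.23 ± 0.11 (adjusted p = 4.31e-12) in parental and 2.95 ± 0.11 (adjusted p = 1.92e-11) in knockout cells. Whether the response differed between the lines was tested as the interaction, the knockout response minus the parental response. With all 12 arrays it was 0.24 ± 0.32 (95% confidence interval -0.45 to 0.93, adjusted p = 0.852), and without the 2 arrays it was -0.29 ± 0.16 (-0.61 to 0.04, adjusted p = 0.449). The sign turned between the fits and neither was called, so these arrays do not settle a difference in response of that size.

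**Figure D1:**
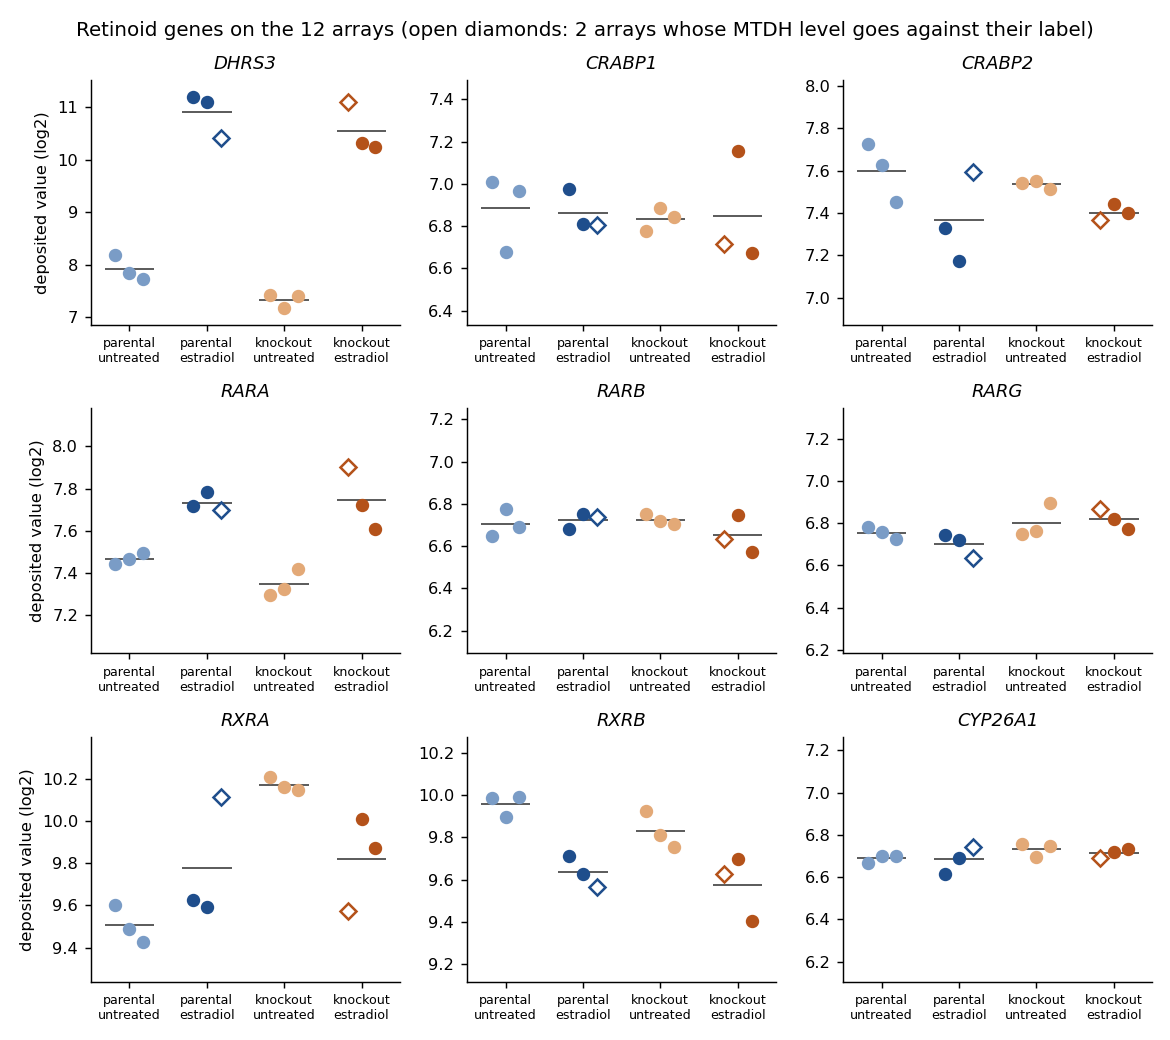
Deposited log2 values of the 9 retinoid genes (vertical axes, each panel with its own range of at least about 1 log2 unit) on the 12 arrays, by group (horizontal axis). Points are arrays, lines are group means, and open diamonds mark the 2 arrays whose MTDH level goes against their label. DHRS3 lay between 7.18 and 8.18 on untreated and between 10.24 and 11.20 on estradiol arrays, and RARB and CYP26A1 stayed near 6.7 throughout.

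CYP26A1, a hydroxylase that inactivates retinoic acid and whose gene is known as a sensitive retinoic acid target, was not above the median of all values on any of the 12 arrays. Its lowest value was 6.62, on a parental estradiol array, and its highest 6.75, on an untreated knockout array, and the 4 groups overlapped. It was therefore not tested with the filter. In the fit without a filter its estradiol differences were -0.01 in parental (adjusted p = 0.987) and -0.02 in knockout cells (adjusted p = 0.964). Values this low on an array cannot show whether a change took place below the range that the probes resolve.

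The binding protein CRABP2, which is known to hand retinoic acid to RAR, read 7.73, 7.63 and 7.45 on the untreated parental arrays and 7.33, 7.17 and 7.59 on the parental estradiol arrays. The highest of these estradiol values, 7.59, was the array labelled parental estradiol replicate 3, and it lay among the untreated values while the other estradiol arrays lay below them. On the knockout arrays CRABP2 read 7.54, 7.55 and 7.52 without and 7.37, 7.44 and 7.40 with estradiol, and all estradiol arrays were below all untreated arrays. With all 12 arrays the difference in parental cells was -0.23 ± 0.09 (adjusted p = 0.167), which was not called. With them left out, CRABP2 fell by 0.35 ± 0.08 (n = 3 untreated and 2 with estradiol, adjusted p = 0.0121) in parental cells. In knockout cells the difference was -0.13 (adjusted p = 0.563) with all arrays and -0.11 (adjusted p = 0.54) without the 2. The mean over both lines was called without the 2 arrays (-0.23 ± 0.06, adjusted p = 0.0129) and missed the threshold with them (-0.18 ± 0.07, adjusted p = 0.106). It was also called when parental estradiol replicate 3 (adjusted p = 0.0119) or parental untreated replicate 3 (adjusted p = 0.047) alone was left out.

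CRABP1, the other cellular retinoic acid binding protein, read above the median of all values on 6 of the 12 arrays and ranged from 6.67 to 7.15. Its group means spanned 0.05 log2 units. Every group overlapped every other, and the estradiol differences were -0.02 in parental (95% confidence interval -0.28 to 0.23, adjusted p = 0.955) and 0.01 in knockout cells (-0.24 to 0.27, adjusted p = 0.981).

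Among the RAR receptors, RARA alone was called for estradiol. RARA read 7.44, 7.47 and 7.49 on the untreated parental arrays and 7.72, 7.79 and 7.70 with estradiol. On the knockout arrays it read 7.30, 7.32 and 7.42 without and 7.90, 7.72 and 7.61 with estradiol. All 6 estradiol arrays stood above all 6 untreated arrays. RARA rose by 0.26 ± 0.07 (n = 3 per group, adjusted p = 0.0439) in parental cells and by 0.40 ± 0.07 (adjusted p = 0.00805) in knockout cells, and by 0.33 ± 0.05 (adjusted p = 0.00102), or 1.26-fold, over both lines. In the fit of 10 arrays the rises were 0.28 (adjusted p = 0.0178), 0.32 (adjusted p = 0.0115) and 0.30 (adjusted p = 0.000582). The call in parental cells was near the threshold and was lost under 10 of 20 alternative settings, namely the replicate number as a block (adjusted p = 0.0599) and the omission of any 1 parental or any 1 untreated knockout array (adjusted p from 0.0561 to 0.152). The calls in knockout cells and over both lines held under all 20.

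RARB, a receptor whose own gene is known to be induced by retinoic acid, was above the median of all values on 0 of the 12 arrays and ranged from 6.57 to 6.78. It was not tested with the filter, and without one the estradiol differences were 0.02 in parental (adjusted p = 0.951) and -0.08 in knockout cells (adjusted p = 0.749). RARG, a receptor best known from epithelia such as the skin, passed the filter on exactly 3 arrays, all of the knockout line, and ranged from 6.63 to 6.90. Its estradiol differences were -0.06 in parental (95% confidence interval -0.19 to 0.07, adjusted p = 0.682) and 0.02 in knockout cells (-0.11 to 0.15, adjusted p = 0.944). RARB and CYP26A1, the genes whose windows hold the repeats shown above, were the only members dim on every array.

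RXRB, a heterodimer partner of RAR and of several other nuclear receptors, read 9.99, 9.90 and 9.99 on the untreated parental arrays and 9.71, 9.63 and 9.57 with estradiol. In knockout cells it read 9.92, 9.81 and 9.75 without and 9.63, 9.70 and 9.40 with estradiol. All 6 estradiol arrays were below all 6 untreated arrays. RXRB fell by 0.32 ± 0.08 in parental cells (n = 3 per group, adjusted p = 0.0258) and by 0.29 ± 0.06 over both lines (adjusted p = 0.00475, 1.22-fold lower), while in knockout cells the difference of -0.25 ± 0.08 missed the threshold (adjusted p = 0.1). From the 10 arrays the parental value was -0.29 (adjusted p = 0.0414), the knockout value -0.28 (adjusted p = 0.0662) and the mean -0.29 (adjusted p = 0.00436). The difference between the lines in response was 0.07 (95% confidence interval -0.17 to 0.31, adjusted p = 0.879), so the call in 1 line and not in the other does not show a difference between them. The parental call was lost after quantile normalization (-0.21, adjusted p = 0.151; -0.15 and 0.275 without the 2 arrays) and on leaving out any 1 of the untreated parental arrays or parental estradiol replicate 2 or 3 (adjusted p from 0.0568 to 0.0934), whereas the mean over both lines was called under all 20 alternatives.

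**Figure D2:**
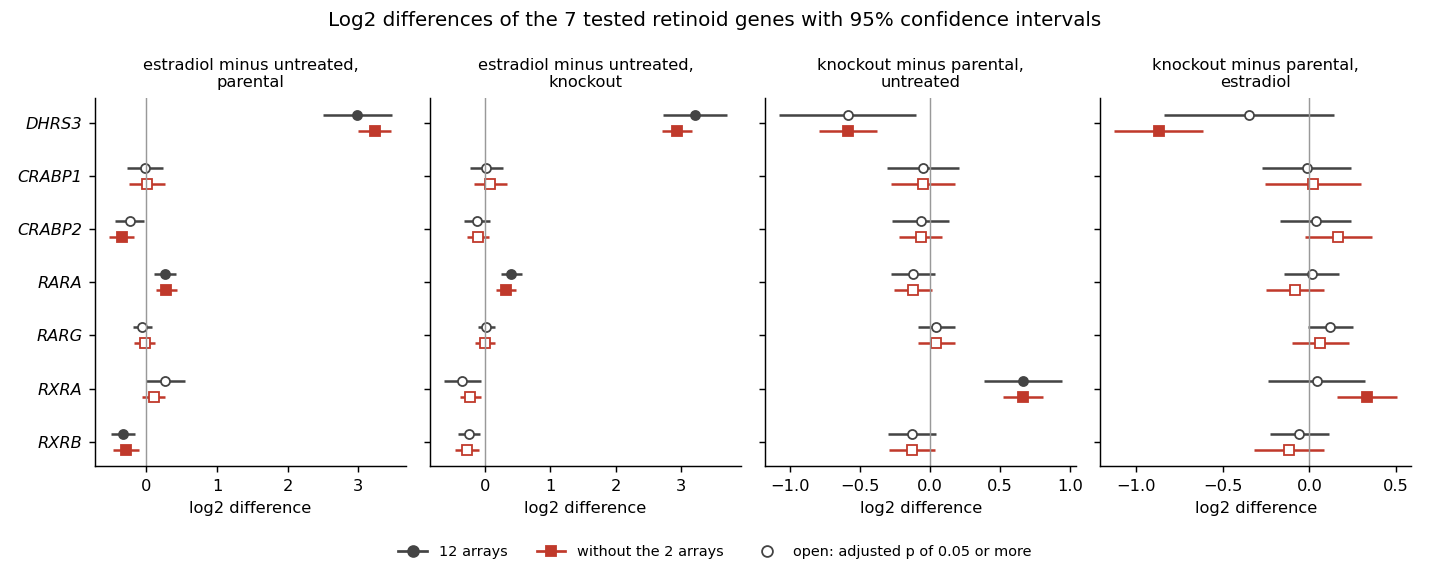
Log2 differences of the 7 tested retinoid genes (horizontal axes, each panel with its own range) with 95% confidence intervals, for estradiol in each line and for the knockout against the parental line. Grey circles are from all 12 arrays, red squares from the 10 arrays without the 2, and open symbols mark an adjusted p of 0.05 or more. DHRS3 stands alone near 3 in both estradiol panels, and RXRA lies at 0.67 between the untreated lines.

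Between the untreated lines, the retinoid X receptor RXRA was higher in the knockout, and DHRS3 was lower, the latter called once the 2 arrays were left out. The other 5 tested genes were not called. With all 12 arrays 1 of the 7 tested genes was higher and 0 lower in the untreated knockout line, against 2.31% and 8.63% of all tested genes. From the 10 arrays, 1 was higher and 1 lower, against 5.98% and 13.6%. Between the estradiol groups 0 members were called in either direction with all 12 arrays, where 0% of all genes were called higher and 0% lower by limma and 1064 of 19670 had an unadjusted p under 0.05, among them 0 of the 7. Without the 2 arrays, 1 member was higher and 1 lower in the knockout line with estradiol, against 4.96% and 4.83% of all genes.

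RXRA, the partner receptor shared by RAR, PPAR, LXR and the vitamin D receptor, read 9.60, 9.49 and 9.43 on the untreated parental arrays and 10.21, 10.16 and 10.15 on the untreated knockout arrays. The groups did not overlap, and the gap between them was wider than the range within either group. RXRA was higher by 0.67 ± 0.13 in the knockout (n = 3 per group, adjusted p = 0.00947), or 1.59-fold, and by 0.67 ± 0.07 (adjusted p = 2.25e-06) with the spread of the fit without the 2 arrays. It was called under all 20 alternatives, with an adjusted p between 0.00153 and 0.0479 when single arrays were left out.

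With estradiol, RXRA read 9.62, 9.59 and 10.11 on the parental arrays and 9.57, 10.01 and 9.87 on the knockout arrays. The parental value of 10.11 and the knockout value of 9.57 belong to the 2 arrays that go against their labels. The first was above all knockout estradiol values and the second below all parental estradiol values. With all 12 arrays the lines therefore overlapped, and RXRA differed by 0.04 ± 0.13 (95% confidence interval -0.24 to 0.32, adjusted p = 0.974). With them left out, it was higher in the knockout by 0.33 ± 0.08 (n = 2 per group, adjusted p = 0.015). The response to estradiol itself was 0.27 (adjusted p = 0.256) in parental and -0.35 ± 0.13 (adjusted p = 0.169) in knockout cells, and 0.10 (adjusted p = 0.441) and -0.23 ± 0.07 (adjusted p = 0.0783) without the 2 arrays. The interaction was -0.62 ± 0.18 (adjusted p = 0.228, unadjusted p = 0.0045) with all arrays and -0.33 ± 0.11 (adjusted p = 0.16, unadjusted p = 0.00605) without the 2. Neither was called, while quantile normalization of the 10 arrays gave -0.45 with an adjusted p of 0.0134, and there RXRA rose in parental cells (0.23, adjusted p = 0.0197) and fell in knockout cells (-0.22, adjusted p = 0.024). For the interaction 0 of the 7 members were called by limma in either fit, where 0.00508% of all genes were called with 12 arrays and 0.752% with 10. In each fit 1 member, RXRA, had an unadjusted p under 0.05, beside 2069 of all 19670 genes with 12 arrays and 2683 with 10.

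DHRS3 was the member that was lower in the knockout line. In untreated cells all 3 knockout arrays, at 7.18 to 7.42, were below all 3 parental arrays, at 7.72 to 8.18. The difference was -0.59 ± 0.23 with all 12 arrays, which missed the threshold (adjusted p = 0.115) but passed it when either of the 2 arrays alone was left out (0.0466 without the parental one and 0.0326 without the knockout one) and with the replicate block (0.0274). It was -0.59 ± 0.10 without the 2 arrays (adjusted p = 0.000434), since leaving out estradiol arrays changes the pooled spread of the fit and not the means of the untreated groups. With estradiol the lines differed by -0.35 ± 0.23 (adjusted p = 0.907) with all arrays. Without the 2, the parental arrays read 11.20 and 11.10 and the knockout arrays 10.32 and 10.24, and the difference was -0.87 ± 0.12 (n = 2 per group, adjusted p = 0.000109). Ordered by their means, the groups were parental estradiol at 10.90 ± 0.43 (SD, n = 3), knockout estradiol at 10.56 ± 0.48, parental untreated at 7.92 ± 0.24 and knockout untreated at 7.33 ± 0.13. The first pair did not differ beyond its spread with all 12 arrays.

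**Figure D3:**
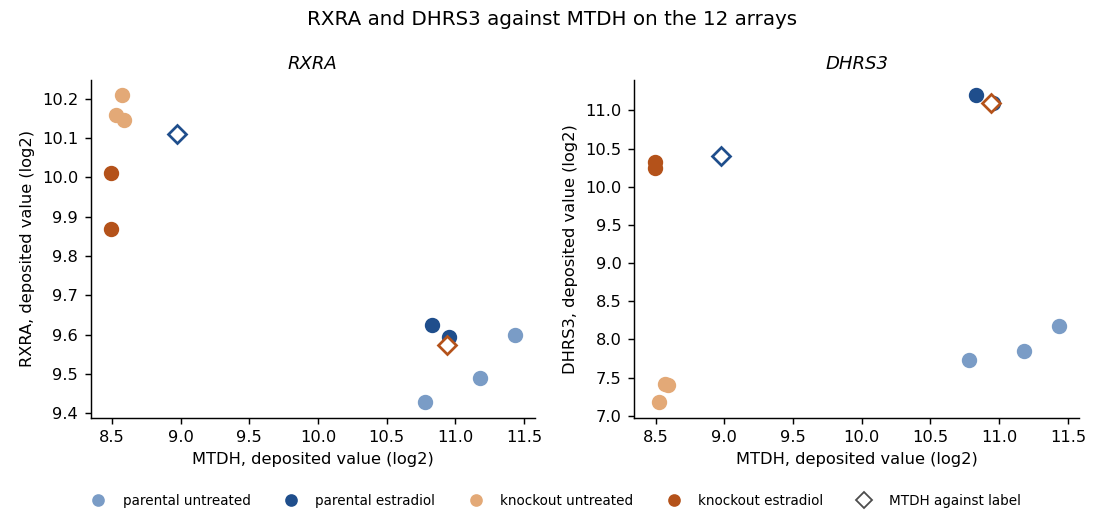
RXRA and DHRS3 (vertical axes, log2) against MTDH (horizontal axes, log2) on each of the 12 arrays, coloured by labelled group, with the 2 arrays whose MTDH level goes against their label as open diamonds. Those 2 arrays, at 10.11 and 9.57 for RXRA, lie among the arrays with a like MTDH level, and DHRS3 separates the treatments at low and at high MTDH.

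The remaining members showed no called difference between the lines. RARA differed by -0.12 ± 0.07 in untreated cells (95% confidence interval -0.28 to 0.03, adjusted p = 0.321) and by 0.01 with estradiol (-0.14 to 0.17, adjusted p = 0.985). RXRB differed by -0.13 ± 0.08 (-0.30 to 0.04, adjusted p = 0.339) and by -0.06 (-0.23 to 0.11, adjusted p = 0.946). CRABP2 differed by -0.07 (adjusted p = 0.729) and 0.04 (adjusted p = 0.969). For RARG, which passed the filter through knockout arrays alone, the values were 0.05 (adjusted p = 0.689) and 0.12 (adjusted p = 0.895). For CRABP1 they were -0.05 (adjusted p = 0.852) and -0.02 (adjusted p = 0.988). RARB and CYP26A1, tested without the filter, differed by 0.02 (adjusted p = 0.902) and 0.04 (adjusted p = 0.714) in untreated cells.

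DHRS3 was the only member whose group means spanned more than 1 log2 unit, at 3.57, followed by RXRA at 0.67, RARA at 0.40, RXRB at 0.38 and CRABP2 at 0.23. The genes whose values ran most like those of DHRS3 over the 12 arrays were CA2, a carbonic anhydrase (Pearson's r = 0.994), the creatine kinase CKB (0.993), the growth factor TGFA (0.988), DOK7, an adaptor protein (0.984), and EPB41L2, a membrane skeleton protein (0.981). These arrays fall into an untreated and an estradiol cluster, and the coefficients are given as a description. The mean rise of these 5 genes over both lines was 1.61, 1.82, 1.42, 0.88 and 0.92 log2 units in the order named, each smaller than the 3.11 of DHRS3.

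Around the 9 members, 91 other genes of retinoid handling and signalling in 7 lists were looked up, of which 59 were tested. Over the mean of both lines, 0 of 11 tested genes of retinoid uptake, storage and carriage rose with estradiol and 4 fell, with a median of -0.21 beside -0.03 over all tested genes, of which 1.85% rose and 8.76% fell. Without the 2 arrays 1 rose, FABP5 (0.21, adjusted p = 0.0293), and 6 fell, against 2.56% and 11.8% of all genes. Among them were the intestinal-type binding protein RBP2 (-0.56, adjusted p = 0.00487), RBP5 (-0.27, adjusted p = 0.00184) and the retinol transporter STRA6 (-0.27, adjusted p = 0.00368), each called under all 20 alternatives. RBP2 read 7.90, 7.85 and 7.76 on the untreated and 7.24, 7.15 and 7.79 on the estradiol arrays of the parental line, and 8.41, 8.26 and 8.35 against 7.35, 7.89 and 7.78 in the knockout. In the knockout line all estradiol arrays were below all untreated arrays, while in the parental line the estradiol value of 7.79, from replicate 3, lay among the untreated ones.

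Of 16 tested genes known as induced by retinoic acid in various cells, 1 rose and 6 fell with estradiol over both lines, with a median of -0.13 (all genes, 1.85% and 8.76%), and 1 rose and 7 fell without the 2 arrays (2.56% and 11.8%). STRA6 is counted in this list too. The rise was that of BHLHB2, the table's older name of the transcription factor gene BHLHE40 (0.43 ± 0.05, adjusted p = 0.000197), and the fall of RAI14 was -0.33 (adjusted p = 0.00146). In the untreated knockout line 4 rose and 4 fell (all genes, 2.31% and 8.63%), and 7 rose and 4 fell in the fit of 10 arrays (5.98% and 13.6%). Among those called with all 12 arrays were the transglutaminase TGM2 (0.54, adjusted p = 0.00719) and GPRC5A (0.53, adjusted p = 0.00645), which rose, and HOXA5 (-0.53, adjusted p = 0.00708) and RAI14 (-0.38, adjusted p = 0.0107), which fell. Of 13 tested corepressors and coactivators of RAR, 1 rose and 4 fell with estradiol over both lines in either fit (all genes, 1.85% and 8.76% with 12 arrays, 2.56% and 11.8% with 10). NRIP1, a corepressor that ligand-bound RAR and the estrogen receptor both recruit, rose by 0.62 ± 0.07 over both lines (adjusted p = 5.3e-05) and, like DHRS3, was lower in the untreated knockout line (-0.53, adjusted p = 0.00678).

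Of 9 tested retinol and retinal oxidoreductases other than DHRS3, 1 rose and 2 fell in the untreated knockout (all genes, 2.31% and 8.63%), and 0 rose and 1 fell with estradiol over both lines (1.85% and 8.76%). Without the 2 arrays the counts were 2 and 2 (5.98% and 13.6%), and 0 and 3 (2.56% and 11.8%). AKR1C3, a reductase of retinal, steroids and prostaglandins, fell most in the knockout (-1.32 ± 0.28, adjusted p = 0.0136, lost with a trended and robust prior at 0.0535), followed by RDH10 (-0.39, adjusted p = 0.0205), while RDH5 was higher (0.41, adjusted p = 0.0193). Of 4 tested retinaldehyde dehydrogenases and carotene oxygenases 0 were called by limma with all 12 arrays. Between the untreated lines 2 had an unadjusted p under 0.05, beside 5153 of all 19670 tested genes. These 2 were higher in the knockout in the fit of 10 arrays, ALDH1A3 (0.35, adjusted p = 0.00184) and ALDH1A2 (0.25, adjusted p = 0.00943). Of 8 tested partner receptors of RXR, NR1H3 was called between the untreated lines (0.33, adjusted p = 0.0343), joined by PPARG (0.20, adjusted p = 0.0379) in the fit of 10 arrays. Of all genes 2.31% were higher with 12 arrays and 5.98% with 10. PPARG read 6.61 to 6.66 on untreated parental and 6.76 to 6.87 on untreated knockout arrays, near the filter's level of 6.82. It passed the filter only with untreated knockout arrays counted, the group where it was called higher. Of 2 tested genes in a list of cytochrome P450 genes that act on retinoids, CYP26B1 and CYP1B1, 0 were called with all 12 arrays. Between the untreated lines 1 had an unadjusted p under 0.05, beside the same 5153 of 19670. CYP1B1 was higher in the untreated knockout without the 2 arrays (0.49, adjusted p = 0.000187), where 5.98% of all genes were higher. In that fit CYP1B1 was also called higher with estradiol in knockout cells and over both lines, where 2.54% and 2.56% of all genes rose.

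**Figure D4:**
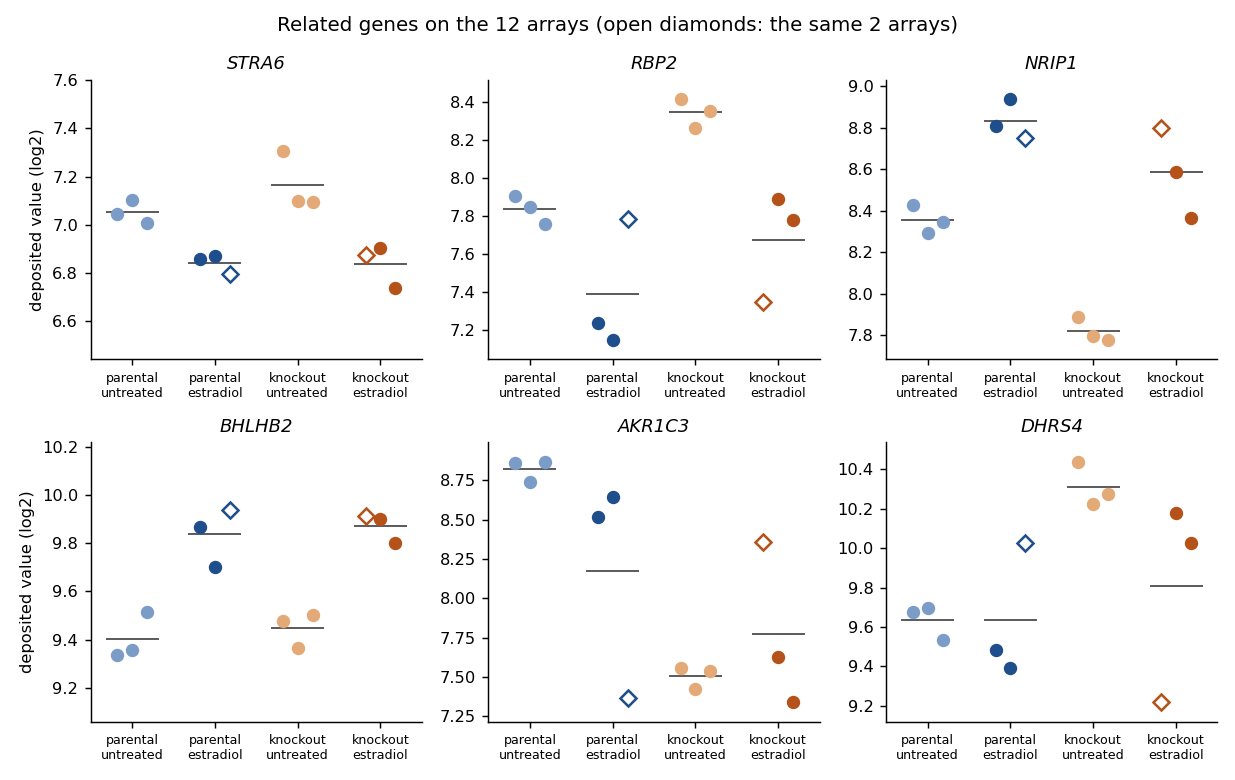
Deposited log2 values of 6 genes of retinoid handling and signalling (vertical axes, each panel with its own range) on the 12 arrays by group (horizontal axis). Points are arrays, lines are group means and open diamonds are the 2 arrays whose MTDH level goes against their label. RBP2 lay between 8.26 and 8.41 on untreated knockout arrays, and for RBP2, AKR1C3 and DHRS4 the diamonds sit with the other line.

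Markers of the cell line and of stroma moved beside these results. Of the 9 epithelial and endometrial carcinoma markers, 0 rose and 4 fell in the untreated knockout, against 2.31% and 8.63% of all genes. In this comparison, where RXRA was higher, the 4 were KRT19 (-0.86), EPCAM (-0.58), CLDN4 (-0.38) and PAX8 (-0.34). With estradiol over both lines 1 rose and 4 fell, against 1.85% and 8.76% of all genes. The rise was that of PGR (0.21). PGR passed the filter only through estradiol arrays, where it was higher, and it was not called in knockout cells. The falls were those of KRT8 (-0.50), CDH1 (-0.31), PAX8 (-0.41) and the estrogen receptor gene ESR1 (-0.52 ± 0.06, adjusted p = 0.000185). Without the 2 arrays 0 rose and 6 fell in the untreated knockout (all genes, 5.98% and 13.6%). In the same fit 1 rose and 5 fell with estradiol over both lines (2.56% and 11.8%). The summed log2 level of the 9 was 90.3 to 91.8 on untreated parental, 88.1 to 88.9 on untreated knockout, 87.1 to 88.6 on parental estradiol and 86.0 to 88.4 on knockout estradiol arrays. Of 6 fibroblast or stromal markers 3 were tested, and COL1A1 was higher in the untreated knockout (0.52, adjusted p = 0.0109). COL1A1 (-0.39, adjusted p = 0.00446) and COL3A1 (-0.27, adjusted p = 0.00351) fell with estradiol over both lines. The summed log2 level of the 6 was 41.0 to 41.5 on untreated parental and 41.9 to 42.2 on untreated knockout arrays, and 40.7 to 41.2 and 40.9 to 41.3 on the estradiol arrays, with COL1A1 and COL3A1 alone above the median of all values on all 12 arrays. Of 4 endothelial markers 1 was tested, VWF, which fell with estradiol over both lines (-0.40). The shares of all genes given above for each comparison stand beside these stromal and endothelial calls too. The part of these genes in the retinoid results was not tested.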

How the data were processed

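Values in log2 units were deposited by the authors, as 1 number for each array and each gene symbol or other row name, from Illumina whole-genome direct hybridization arrays per the labels' protocols. Background correction, normalization between arrays and the combination of probes are not given in the sources used here. A total of 34595 entries with 0 missing values was read, and 0 columns were left unmapped. Genes that read above 6.82, the table's median, on 3 or more arrays were tested, 19670 in all. One mean per group was fitted to the 12 arrays with limma version 3.58.1 (lmFit and eBayes) in R version 4.3.3, with 8 residual degrees of freedom, and 6 without the 2 arrays. P-values were two-sided, adjusted by Benjamini-Hochberg over all genes tested, separately for each of 6 comparisons, and called under 0.05. The steps were checked on simulated data. Precision is limited by how many arrays there are.

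The members and lists were chosen with earlier results of these data known, among them the DHRS3 rise with estradiol and the RXRA, NR1H3 and NRIP1 differences between the untreated lines, so these are not independent support. Named were the 9 members, MTDH, ESR1, at most the 4 called genes of smallest p per list and comparison, and the 5 genes most correlated with any member that spanned over 1 log2 unit. The epithelial, stromal and endothelial markers and, in a plot, DHRS4 were named after their values were seen. The settings varied were the filter (none, or at the 67th percentile), scaling (quantile normalization, median centring), the replicate number as a block, a trended and robust prior, omission of the 2 arrays with and without quantile normalization, and omission of each of the 12 arrays in turn. Background correction and array slide could not be varied from these values. Protein sequences were not analysed here.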

Additional observations from a re-analysis of the deposited data

Results flagged for a closer look

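RXRA was singled out because its response to estradiol pointed in opposite directions in the 2 lines. The interaction was -0.62 ± 0.18 log2 units (adjusted p = 0.228, unadjusted p = 0.0045). All 3 parental estradiol arrays lay above the parental untreated mean, and all 3 knockout estradiol arrays lay below the knockout untreated mean. The test of the difference did not pass the threshold, and 2069 of all 19670 genes had an unadjusted p under 0.05 for the interaction. Without the 2 arrays whose MTDH level goes against their labels the interaction was -0.33 (adjusted p = 0.16).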

How the results depend on the processing

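Of 828 log2 differences of members under alternative settings, 739 kept direction and side of the threshold, 17 lost a call, 20 gained one, 0 reversed, and 52 turned sign without a call in either setting. The rises of DHRS3 in each line, of RARA in the knockout and over both lines, the fall of RXRB over both lines and the untreated difference in RXRA were called under all 20 alternatives. Between the untreated lines, the 1 called member became 2 (DHRS3 added) with the replicate block, without the 2 arrays, and without them after quantile normalization, and was 1 to 2 with single arrays omitted (2 without parental estradiol replicate 3 or knockout estradiol replicate 1). Between the estradiol groups, 0 became 2 without the 2 arrays, with or without quantile normalization. For estradiol in parental cells, 3 became 1 without parental untreated replicate 1, 2 or 3 or parental estradiol replicate 2, with a range of 1 to 3 over single omitted arrays, and 4 without the 2 arrays (CRABP2 added). In knockout cells, 2 became 4 (RXRA and RXRB lower) without the 2 arrays after quantile normalization, and the range over single arrays was 2 to 3. The interaction went from 0 to 1, RXRA (-0.45, adjusted p = 0.0134), without the 2 arrays after quantile normalization. The causes were not tested.

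The replicate numbers are not shown to pair the arrays: of 18 same-numbered pairs, 6 had residuals correlated above 0.1. With the replicate block RARA in parental cells had an adjusted p of 0.0599. Scaling moved the balance of calls over all genes. Rises made up 21.1% of calls between the untreated lines as deposited and 55.8% after quantile normalization, 16.1% and 46.8% for estradiol in parental cells, and 30.5% and 44.1% in knockout cells. Over both lines the shares were 17.4% and 45.3%.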
